A study of Homo sapiens with 4 samples.

Results

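The histone lysine demethylases and methyltransferases are the enzymes that take methyl groups off, or put them on, the lysines of histone tails. They were followed here in HepG2, an established hepatocellular carcinoma cell line, after inhibition of miR-191. Members were chosen by gene symbol alone: every gene whose symbol starts with KDM, KMT, SETD, JMJD, NSD, SUV39H, EHMT, EZH or PRDM and a digit, on a row of the table that carries 1 gene symbol, with the brightest row standing for a gene that has several. The rule found 66 genes on 72 rows, of 18417 genes in the table. They comprised 22 erasers (KDM and JMJD symbols), 26 writers (KMT, SETD, NSD, SUV39H, EHMT and EZH symbols), 14 PRDM genes and 4 non-coding transcripts named after a member.

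The HepG2 cells were transfected, by means of a lipid reagent, with anti-miR-191, an oligonucleotide that blocks this microRNA (2 arrays), or with a negative control anti-miR (2 arrays). Treatments were made in 2 independent experiments, and each gave an array of either kind. Neither dose nor harvest time is stated in the labels, and all values come from a single cell line. Total RNA was measured on Affymetrix arrays, and levels are RMA intensities on the log2 scale. Changes are anti-miR-191 minus control on that scale, averaged over the 2 experiments, ± SE. "Rose" and "fell" are used for an adjusted p under 0.05 in limma's paired fit over 14147 genes, which keeps the experiment as a block.

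Methylation of a histone lysine is written by SET-domain enzymes (and by DOT1L), and it is erased by the amine oxidases KDM1A and KDM1B or by the JmjC enzymes, which need iron, oxygen and 2-oxoglutarate. Methylation of H3K4 and H3K36 accompanies active genes, whereas that of H3K9 and H3K27 accompanies silenced ones. PRDM proteins carry a domain related to SET beside zinc fingers, and most of them act as transcription factors without a shown enzyme activity. A few members by name act elsewhere: SETD3 methylates a histidine of actin, JMJD4 hydroxylates a translation release factor, and JMJD6 hydroxylates lysines of splicing factors. Methyltransferases and demethylases are often altered in liver cancer, and EZH2 is the best studied of them there.

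The sequence that the treatment is directed against is shown because every comparison below rests on it. The mature strands are from RefSeq (GRCh38.p14, minus strand), 5′ to 3′, with the seed, bases 2 to 8, in capitals. The 5p strand lies at chr3:49020672-49020694 and the 3p strand at chr3:49020631-49020652.
hsa-miR-191-5p: cAACGGAAucccaaaagcagcug
hsa-miR-191-3p: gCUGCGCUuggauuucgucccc
No 3′ ends of the members' transcripts were used here, so matches to this seed were not counted.

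The arrays carried the liver genes of the labelled cell line. Of 10 hepatocyte and HepG2 markers 9 had a row, with group means of 4.78 to 11.1 after anti-miR-191 and 5.21 to 11.6 in controls. TTR fell by 1.04 on the log2 scale and the other 8 did not pass. Their median change was -0.48, with 0.01 in experiment 1 and -0.88 in experiment 2, and its part in the members' values was not tested. Of 12 markers of other cell types 11 had a row, with 2.52 to 6.11 after anti-miR-191 and 2.62 to 6.02 in controls, and 0 passed in limma's paired fit. Their log2 levels summed to 44.7 on both anti-miR-191 arrays, against 45.1 and 44.5 on the control arrays. As a description of how an unexpressed gene reads, 341 olfactory receptor genes had a 95th percentile of 4.03 after anti-miR-191 and 4.15 in controls. Probe sets differ in affinity, so this sets no exact limit. Of the 66 members 53 lay above it in both groups.

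Over the whole set, 63 members were bright enough to be tested, and 20 of them rose (31.7%), where 10.1% of all genes tested rose. None fell in limma's paired fit (0 members, with 1 lower at an unadjusted p under 0.05), where 3.77% of all genes tested fell. In the unpaired fit, which ignores the experiment, 5 of the 63 were higher and 0 lower (24 and 0 at an unadjusted p under 0.05), against 3.2% and 0.714% of all genes. Leaving out the first experiment's anti-miR-191 sample made that count 7. Leaving out any one of the other arrays ended every call, among the members as over all genes tested. In the paired fit, quantile normalization ended the calls of KDM5C, SETD4, KMT2B and EHMT1. With that scaling 6.34% of all genes tested rose. EHMT1 also lost its call under median centring, cyclic loess and trended robust moderation. At least 1.5-fold higher in both experiments were 16 of the 66 (24.2%) and 0 were as much lower, against 4.98% and 1.7% of all genes. Both anti-miR-191 arrays lay above both controls for 34 members and below both for 8, against 24.8% and 26.4% of all genes. The median change of the 66 was 0.27, beside -0.02 over all 18417 genes. Those 18417 include dim genes, and over the 14147 tested the median was 0.012. Of the 14147, 913 (6.45%) were at least 1.5-fold higher in both experiments and 314 as much lower. Both anti-miR-191 arrays lay above both controls for 4160 of them (29.4%) and below for 3371.

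**Figure D1:**
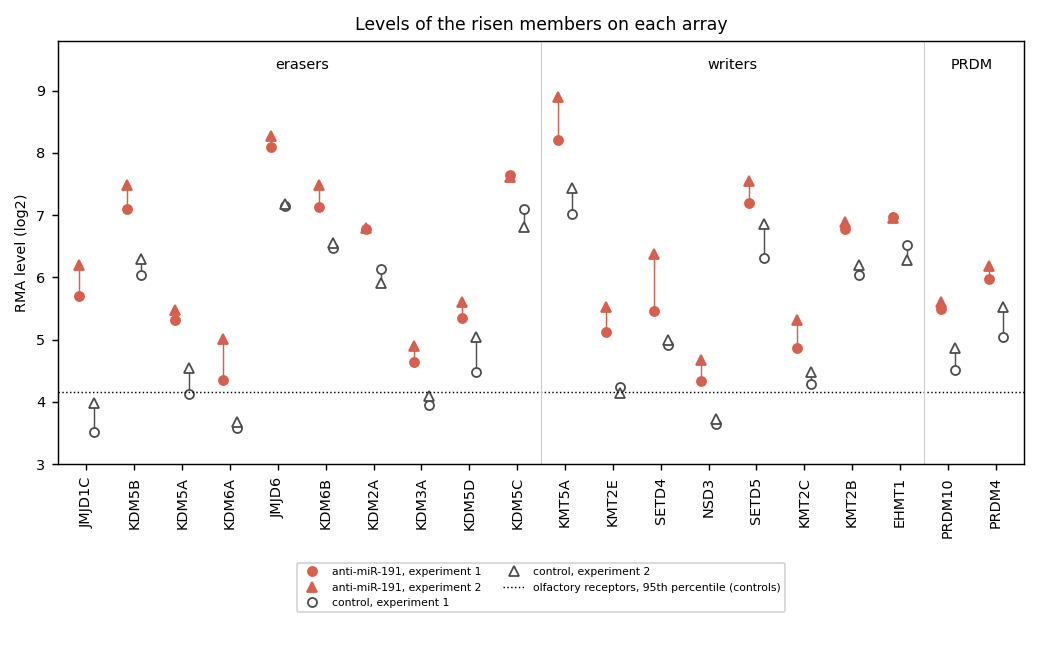
RMA level (log2) of each of the 20 risen members on the 4 arrays, erasers at the left, then writers and PRDM genes. Filled red symbols are anti-miR-191 arrays and open grey symbols are controls, circles experiment 1 and triangles experiment 2, and the dotted line is the 95th percentile of olfactory receptor genes in controls (4.15). In all 20 both anti-miR-191 arrays lie above both controls, and for JMJD1C, KDM6A, KDM3A and NSD3 both controls lie below the dotted line.

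Among the erasers 10 of 22 rose (45.5%) and 0 fell (1 at an unadjusted p under 0.05). Of all genes tested 10.1% rose and 3.77% fell. The median change over all 22 was 0.52, with 0.60 in experiment 1 and 0.48 in experiment 2. The class spans JMJD1C at 2.19 and JMJD8 at -0.36. In both experiments 16 of the 22 were higher and 2 lower, against 5735 and 6666 of all 18417 genes. Over the 14147 genes tested, as all 22 erasers were, those counts were 5169 and 4672.

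JMJD1C, a large JmjC protein of the KDM3 group whose demethylase activity is debated, had the largest change of the members. It read 5.69 and 6.19 after anti-miR-191 in experiments 1 and 2, and 3.52 and 3.99 in controls. Each experiment gave nearly the same change, 2.17 and 2.20, with a mean of 2.19 ± 0.14 (adjusted p = 0.00095, and 0.023 unpaired). Its control levels lie within the range of olfactory receptor genes, so the change is not given as a fold. The antisense transcript of its locus, JMJD1C-AS1, had a row of its own, which averaged 6.21 ± 0.31 after anti-miR-191 and 6.05 ± 0.11 in controls (SD, n = 2 each). Its changes were -0.13 and 0.47 in experiments 1 and 2, the groups overlapped, and it did not pass (limma's adjusted p = 0.61).

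The other KDM3 enzymes remove mono- and dimethyl groups from H3K9, and they gave smaller values. KDM3A, an enzyme known to be induced by hypoxia, read 4.64 and 4.90 after anti-miR-191 and 3.96 and 4.10 in controls. It rose by 0.74 ± 0.15 (adjusted p = 0.017, and 0.064 unpaired), again with controls within the olfactory receptor range. KDM3B, the broadly expressed enzyme of the group, read 7.01 and 7.10 after anti-miR-191 and 6.38 and 7.04 in controls. It was higher by 0.63 in experiment 1 and by 0.06 in experiment 2, its groups overlapped, and it did not pass (adjusted p = 0.25).

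The KDM5 enzymes, which remove methyl groups from H3K4, were the only eraser group of more than 2 tested genes in which every member rose. KDM5B read 7.09 and 7.48 after anti-miR-191 and 6.04 and 6.30 in controls, and it rose 2.17-fold (1.12 ± 0.15, adjusted p = 0.0049, and 0.038 unpaired). KDM5A, first known as a partner of the retinoblastoma protein, read 5.31 and 5.47 after anti-miR-191 and 4.13 and 4.55 in controls. It rose 2.07-fold (1.05 ± 0.15, adjusted p = 0.0062, and 0.041 unpaired). In both genes the lower anti-miR-191 array lay above the higher control, and the lower control of KDM5A was just below the olfactory receptor level. The X-linked KDM5C rose 1.60-fold (7.65 and 7.62 after anti-miR-191, against 7.10 and 6.81 in controls; adjusted p = 0.025). KDM5D, its close Y-linked copy, rose 1.64-fold (adjusted p = 0.023), and reads of such similar transcripts by each other's probes were not tested. Neither of these copies passed the unpaired fit (adjusted p = 0.074 for KDM5C and 0.135 for KDM5D).

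KDM1A and KDM1B, the flavin-dependent enzymes that also act on H3K4, did not pass. KDM1A, the catalytic subunit of the CoREST repressor complex, read 8.13 and 8.12 after anti-miR-191 and 7.86 and 8.16 in controls. KDM1B read 5.58 and 4.93 after anti-miR-191 and 5.02 and 5.34 in controls, so it was higher by 0.56 in experiment 1 and lower in experiment 2 (-0.42). The groups overlapped for both, with mean changes of 0.12 ± 0.15 and 0.07 ± 0.23.

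Both KDM6 genes, which encode demethylases of H3K27, rose. KDM6A, also called UTX and a subunit of the KMT2C and KMT2D complexes, read 4.35 and 5.01 after anti-miR-191 and 3.58 and 3.69 in controls. It rose by 1.05 ± 0.18 (adjusted p = 0.010, and 0.066 unpaired), with controls within the olfactory receptor range. KDM6B, an enzyme known to be induced by inflammatory signals in macrophages, read 7.14 and 7.48 after anti-miR-191 and 6.47 and 6.55 in controls. It rose 1.73-fold (0.79 ± 0.15, adjusted p = 0.015, and 0.061 unpaired), and its groups did not overlap.

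KDM2A, which acts on H3K36 and binds unmethylated CpG islands, rose 1.70-fold (6.77 and 6.80 after anti-miR-191, against 6.13 and 5.92 in controls; adjusted p = 0.017, and 0.053 unpaired). Its relative KDM2B, a subunit of a Polycomb complex, had a change of 0.17 ± 0.15 and did not pass. Of the 4 KDM4 enzymes, which act on methylated H3K9 and, some of them, on H3K36, 0 passed in limma's paired fit. Their changes were 0.54 for KDM4A, 0.49 for KDM4C, 0.29 for KDM4B and 0.04 for KDM4D, and KDM4A and KDM4C came to adjusted p = 0.060 and 0.066. At an unadjusted p under 0.05 limma counted those 2 as higher. KDM7A, a demethylase of H3K9 and H3K27, had a change of 0.51 and adjusted p = 0.059.

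JMJD6, the lysyl hydroxylase, read 8.09 and 8.26 after anti-miR-191 and 7.14 and 7.19 in controls, the tightest control pair among the risen erasers. It rose 2.02-fold (1.01 ± 0.15, adjusted p = 0.0062, and 0.029 unpaired). The remaining JmjC members did not pass, with changes of -0.01 for JMJD4, -0.12 for KDM8 and -0.36 for JMJD8. JMJD8, a protein of the endoplasmic reticulum lumen, was lower in both experiments and had the lowest change of all 66 members (adjusted p = 0.153). For KDM8 a dimmer row had a change of 0.51, of opposite sign to the row used.

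**Figure D2:**
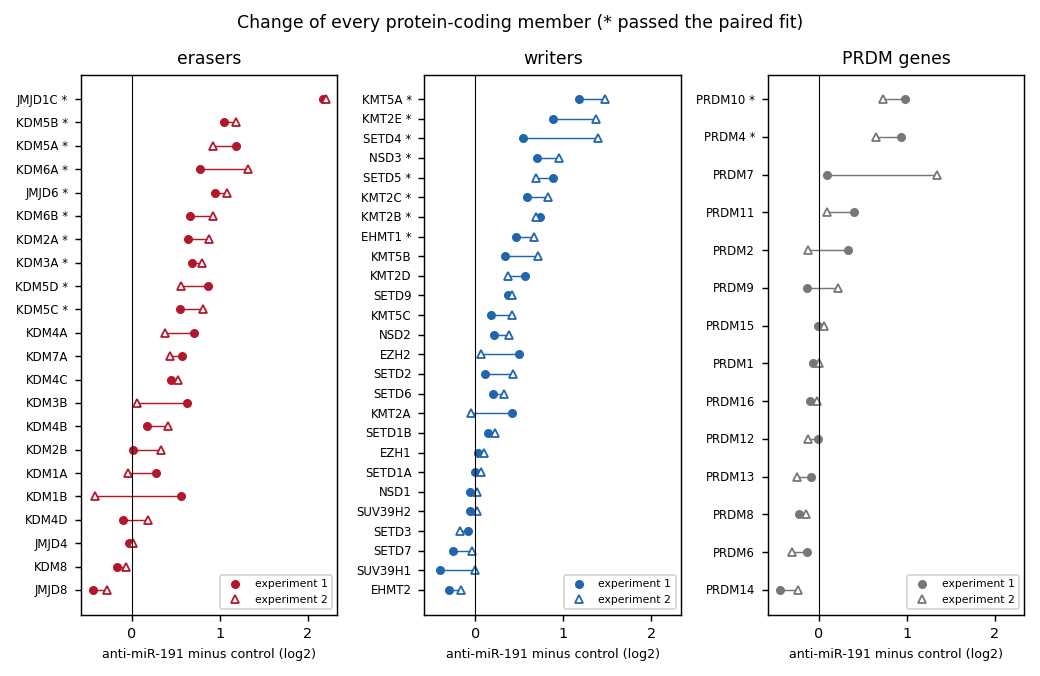
Change after anti-miR-191 (log2, anti-miR-191 minus control) of every protein-coding member in experiment 1 (filled circles) and experiment 2 (open triangles), joined by a line, for erasers, writers and PRDM genes. Asterisks mark the 20 members that passed the paired fit. JMJD1C stands at 2.17 and 2.20, KDM1B at 0.56 and -0.42, and the PRDM genes centre on 0.

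Among the writers 8 of the 25 tested rose (32%) and 0 fell in limma's paired fit, with 0 lower at an unadjusted p under 0.05. Over all genes tested the shares that rose and fell were 10.1% and 3.77%. The median change over all 26 was 0.29, with 0.28 in experiment 1 and 0.38 in experiment 2. NSD1, a writer of H3K36 dimethylation, was the member too dim to test, at 3.31 and 3.34 after anti-miR-191 and 3.37 and 3.32 in controls.

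On its brightest row KMT5A, which monomethylates H4K20 and acts in mitosis and DNA replication, changed most among the writers. It read 8.20 and 8.90 after anti-miR-191 and 7.02 and 7.43 in controls, and it rose 2.51-fold (1.33 ± 0.15, adjusted p = 0.0035, and 0.053 unpaired). KMT5A has 3 rows, of which another changed by 1.15 and the third by -0.15, so the rows disagree. With the mean of its rows its change was 0.78, below the 1.13 of KMT2E. KMT5B and KMT5C, which add further methyl groups to H4K20, had changes of 0.52 ± 0.16 and 0.30 ± 0.15 and did not pass (adjusted p = 0.070 and 0.25).

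The KMT2 group holds the catalytic subunits of the COMPASS-like complexes that methylate H3K4, and KMT2E, which has lost that activity. KMT2E read 5.13 and 5.52 after anti-miR-191 and 4.24 and 4.15 in controls, and it rose 2.19-fold (1.13 ± 0.17, adjusted p = 0.0070, and 0.034 unpaired). Its controls were close to the olfactory receptor level. It was the only writer that also passed the unpaired fit. KMT2B read 6.77 and 6.89 after anti-miR-191 and 6.04 and 6.20 in controls, and KMT2C read 4.87 and 5.31 against 4.28 and 4.48 in controls. Each rose 1.64-fold (adjusted p = 0.018 and 0.021, and 0.060 and 0.103 unpaired). KMT2D, the partner of KMT2C in enhancer methylation, was higher by 0.57 and 0.37 in experiments 1 and 2 without passing (adjusted p = 0.079). KMT2A, the gene rearranged in infant leukaemia, read 5.53 and 5.75 after anti-miR-191 and 5.10 and 5.80 in controls. Its groups overlapped, its change was 0.19 ± 0.17, and its dimmer row had a change of -0.22. SETD1A and SETD1B, the remaining H3K4 enzymes of this kind, had changes of 0.03 and 0.19.

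NSD3, a writer of H3K36 dimethylation, read 4.34 and 4.68 after anti-miR-191 and 3.65 and 3.72 in controls. It rose by 0.82 ± 0.15 (adjusted p = 0.013, and 0.056 unpaired), with controls within the olfactory receptor range. Its relative NSD2 had a change of 0.30 ± 0.15, and SETD2, the enzyme of H3K36 trimethylation, one of 0.27 ± 0.16. Neither passed (adjusted p = 0.24 and 0.31). SETD2 was higher by 0.11 in experiment 1 and by 0.43 in experiment 2, and with single arrays left out its change lay between 0.073 and 0.47.

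Of the 4 H3K9 enzymes in the writer class, which leaves out the PRDM genes, 1 rose. EHMT1 read 6.98 and 6.95 after anti-miR-191 and 6.51 and 6.28 in controls, and it rose 1.48-fold (0.57 ± 0.15, adjusted p = 0.044, and 0.103 unpaired), a call that the other scalings ended. EHMT2, with which EHMT1 forms the complex that dimethylates H3K9, read 7.29 and 7.29 after anti-miR-191 and 7.59 and 7.46 in controls. Both anti-miR-191 arrays lay below both controls, but the change of -0.23 ± 0.15 did not pass (adjusted p = 0.36), and the difference between the 2 genes was not tested. The trimethylating enzymes had changes of -0.20 ± 0.16 for SUV39H1 and -0.02 ± 0.14 for SUV39H2 (adjusted p = 0.48 and 0.94). SUV39H1 read 6.21 and 6.29 after anti-miR-191 and 6.61 and 6.29 in controls, a difference seen in experiment 1 alone.

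The H3K27 writers, the catalytic subunits of Polycomb repressive complex 2, did not pass. EZH2 read 5.33 and 5.46 after anti-miR-191 and 4.83 and 5.39 in controls, with changes of 0.50 in experiment 1 and 0.07 in experiment 2 (adjusted p = 0.32). EZH1 read 4.24 and 4.21 after anti-miR-191 and 4.20 and 4.12 in controls, close to the olfactory receptor level (change 0.07 ± 0.14).

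Of the other SETD genes, SETD5 read 7.19 and 7.55 after anti-miR-191 and 6.30 and 6.86 in controls, and it rose 1.73-fold (0.79 ± 0.15, adjusted p = 0.015, and 0.123 unpaired). SETD4 read 5.46 and 6.38 after anti-miR-191 and 4.92 and 4.99 in controls, so its 1.96-fold rise (adjusted p = 0.023, and 0.132 unpaired) rested on 0.54 in experiment 1 and 1.39 in experiment 2. SETD9 and SETD6 had changes of 0.40 and 0.27, and SETD3 and SETD7 of -0.13 and -0.15, none of which passed (the lowest of the adjusted p-values was 0.117, for SETD9). At an unadjusted p under 0.05 limma counted only SETD9 among these 4.

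Among the 14 PRDM genes 2 of the 12 tested rose (16.7%) and 0 fell in limma's paired fit (0 lower at an unadjusted p under 0.05), beside 10.1% and 3.77% of all genes tested. The median change over all 14 was 0.00. PRDM10 read 5.50 and 5.60 after anti-miR-191 and 4.52 and 4.87 in controls, and it rose 1.81-fold (0.85 ± 0.15, adjusted p = 0.012, and 0.055 unpaired). PRDM4, a zinc finger protein first described as a partner of the p75 neurotrophin receptor, read 5.97 and 6.18 after anti-miR-191 and 5.04 and 5.53 in controls, a 1.73-fold rise (adjusted p = 0.016, and 0.092 unpaired). PRDM7 read 3.51 and 4.70 after anti-miR-191 and 3.42 and 3.36 in controls, so that 1 array, the anti-miR-191 array of experiment 2, stood apart (adjusted p = 0.127). PRDM7 is a near copy of PRDM9, the enzyme that marks sites of meiotic recombination, which was too dim to test, as was PRDM1. The other 9 had changes between -0.34 (PRDM14) and 0.25 (PRDM11). The 4 non-coding transcripts (JMJD1C-AS1, PRDM10-DT, EHMT1-IT1 and PRDM16-DT) had changes of opposite sign in the 2 experiments, and 0 of them passed (also 0 at an unadjusted p under 0.05).

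Erasers and writers were then set side by side. The median change of erasers exceeded that of writers by 0.33 in experiment 1 and by 0.10 in experiment 2, or 0.23 for the mean changes. This difference was not tested. The share at least 1.5-fold higher in both experiments was 36.4% for erasers and 23.1% for writers. It was 4.98% of all genes and 6.45% of the genes tested. Restricted to enzymes with a well-shown activity on histone lysines, 8 of 17 erasers (47.1%) and 5 of 19 tested writers (26.3%) rose. The share of all genes tested was 10.1%. The medians of these erasers and writers were 0.54 and 0.28. The lowest change among those 17 erasers was 0.04, of KDM4D, whereas the 20 such writers reached down to -0.23, of EHMT2.

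By residue, with KDM7A and 3 KDM4 enzymes counted under both residues they act on, erasers had the higher median for each of the 4 residues with both kinds of enzyme. PRDM genes were not counted under any residue. For H3K4 the median was 0.70 over 6 erasers, against 0.19 over 7 writers. For H3K9 it was 0.50 over 8 erasers, with the debated JMJD1C among them, against -0.11 over 4 writers. SETDB1 and SETDB2, H3K9 writers outside the naming rule, are not among these 4 and had changes of 0.45 and 0.05. For H3K27 it was 0.79 over 3 erasers, against 0.17 over 2 writers. For H3K36 it was 0.49 over 5 erasers, against 0.28 over 4 writers, and the 3 writers of H4K20 had a median of 0.52. The residue groups were drawn up with these values known and are small, so they describe these arrays only.

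**Figure D3:**
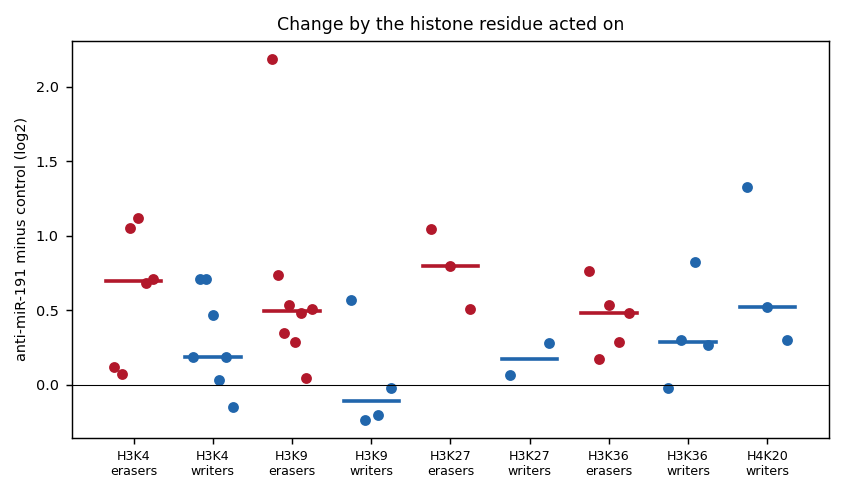
Mean change of the 2 experiments (log2, anti-miR-191 minus control) for members grouped by the histone residue they act on, erasers in red left of writers in blue. Each point is a gene and the bar is the median of the group. KDM7A, KDM4A, KDM4B and KDM4C appear under 2 residues each, and PRDM genes are not shown. The H3K27 erasers lie at 1.05, 0.79 and 0.51 and the H3K27 writers at 0.07 and 0.28.

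The changes of the 2 experiments went together among the members. Over the 62 protein-coding members Pearson's r was 0.79 and Spearman's rho 0.78, beside 0.66 and 0.52 over all genes. These are correlations across genes on the same 4 arrays, and genes are not independent replicates. The SD of the changes over these members was 0.49 in experiment 1 and 0.54 in experiment 2, against 0.39 and 0.45 over all genes. All genes here include dim ones that were not tested, and no correlation was taken over the tested genes alone. Opposite signs in the 2 experiments were seen for 16 of the 66, against 6016 of all 18417 genes and 4306 of the 14147 tested. None of the 16 passed, but a gene with opposite signs can hardly pass a paired fit.

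**Figure D4:**
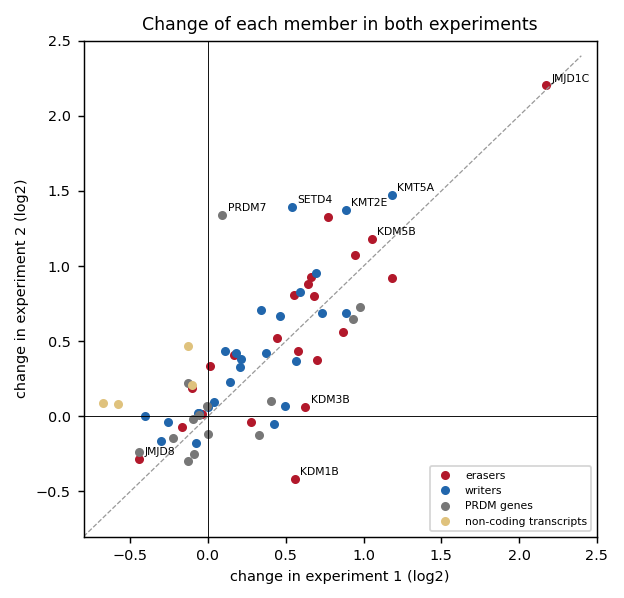
Change of each of the 66 members (log2, anti-miR-191 minus control) in experiment 1, on the horizontal axis, and in experiment 2, on the vertical axis, coloured by class, with the line of equal change dashed. JMJD1C lies on that line at the upper right, and PRDM7 and SETD4 lie above it.

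Of 40 tested partner proteins of the same complexes 4 rose (10%) and 1 fell (2.5%), shares near those of all genes tested (10.1% and 3.77%). Of 9 partners of Polycomb repressive complex 2, 1 rose (MTF2, 1.79-fold) and 0 fell, and the median change was 0.22. Of 12 COMPASS and KMT2 partners 1 rose (WDR82, which binds SETD1A and SETD1B, 1.86-fold) and 1 fell (PAGR1, by 0.58 on the log2 scale), with a median of -0.03. Of 10 partners of KDM1A in the CoREST complexes 1 rose (RCOR1, 1.53-fold) and 0 fell, and of 9 H3K9 partners 1 rose (ZNF644, by 0.81 from a control level within the olfactory receptor range) and 0 fell. Their medians were 0.09 and 0.07. At an unadjusted p under 0.05 limma counted 1 of the CoREST partners as lower, and 0 of the Polycomb or H3K9 partners. It counted 2 of the COMPASS and KMT2 partners as lower, PAGR1 and PSIP1. PSIP1 had a change of -0.55 (limma's adjusted p = 0.052).

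Of 61 tested genes of related enzymes outside the naming rule 8 rose (13.1%), near the 10.1% of all genes tested. Of 8 tested lysine methyltransferases such as DOT1L and the SMYD genes, 1 rose (SMYD2, 1.51-fold). Of 9 further JmjC proteins and partners 2 rose (ARID5B, 1.47-fold, and TYW5, by 0.58 from a control level within the olfactory receptor range), and the median was 0.31. Of 17 tested histone deacetylases 2 rose (SIRT1, 1.62-fold, and SIRT7, by 0.59), of 11 acetyltransferases 1 rose (EP300, 1.78-fold), of 9 arginine methyltransferases 0 rose, and of 7 DNA methylation and TET genes 2 rose (DNMT3B and TET3). In these 6 groups 0 genes fell in limma's paired fit. At an unadjusted p under 0.05 it counted 1 gene of the 6 groups as lower, and 2 of the arginine methyltransferases as higher.

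Members were longer genes than most. The median genomic span was 66.3 kb for erasers and 51.8 kb for writers, beside 24.5 kb over all genes (RefSeq, GRCh38.p14). Across the 62 protein-coding members, change and span had a Spearman's rho of 0.28, beside 0.17 over all genes, and its part in the changes was not tested.

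Promoter windows were read for the risen members, a set chosen by its rise, so their common direction is no result. RefSeq gave 27 windows for 18 of the 20, without JMJD6 and NSD3 (300 bases around a start, GRCh38.p14). The half-site TGACG of the CREB and ATF factors was present, on either strand, in 6 of the 27 (22.2%), against 24.6% of all 35116 windows. The AP-1 motif TGANTCA was present in 2 (7.41%), against 7.71%, and the hypoxia motif ACGTG in 2 (7.41%), against 21.4%. The windows of KDM5A, KDM5B, KDM5C and KDM6A are shown 5′ to 3′ in the gene's direction, with TGACG or its reverse complement in capitals. KDM5A lies at chr12:389271-389570 (minus strand), KDM5B at chr1:202808372-202808671 (minus), KDM5C at chrX:53225158-53225457 (minus) and KDM6A at chrX:44872938-44873237 (plus).
KDM5A: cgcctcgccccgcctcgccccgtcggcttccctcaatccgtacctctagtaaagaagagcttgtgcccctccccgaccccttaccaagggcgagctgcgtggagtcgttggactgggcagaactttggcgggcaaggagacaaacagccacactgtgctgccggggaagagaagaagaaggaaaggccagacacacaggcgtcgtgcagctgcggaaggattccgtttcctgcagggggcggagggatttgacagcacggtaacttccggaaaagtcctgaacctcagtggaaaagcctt
KDM5B: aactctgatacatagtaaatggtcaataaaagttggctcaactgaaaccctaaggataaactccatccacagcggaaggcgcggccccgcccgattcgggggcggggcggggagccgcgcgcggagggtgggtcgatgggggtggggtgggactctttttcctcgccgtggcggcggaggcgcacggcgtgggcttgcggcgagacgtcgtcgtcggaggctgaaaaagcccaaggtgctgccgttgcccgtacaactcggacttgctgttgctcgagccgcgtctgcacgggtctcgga
KDM5C: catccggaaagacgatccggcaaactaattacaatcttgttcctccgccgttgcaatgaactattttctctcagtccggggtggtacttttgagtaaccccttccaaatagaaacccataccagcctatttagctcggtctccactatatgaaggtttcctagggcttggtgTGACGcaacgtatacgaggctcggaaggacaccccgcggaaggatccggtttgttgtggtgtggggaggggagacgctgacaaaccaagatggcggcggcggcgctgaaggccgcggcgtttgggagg
KDM6A: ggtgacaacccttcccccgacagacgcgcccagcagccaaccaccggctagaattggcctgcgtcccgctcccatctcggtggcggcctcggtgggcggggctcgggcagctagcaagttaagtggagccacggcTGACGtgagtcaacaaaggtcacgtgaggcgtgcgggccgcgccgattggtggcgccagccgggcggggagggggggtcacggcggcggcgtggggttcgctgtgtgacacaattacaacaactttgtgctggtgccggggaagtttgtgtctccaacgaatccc
In KDM6A the half-site overlaps a match to ACGTG and is followed directly by a match to TGANTCA. KDM5A and KDM5B hold none of the 3 motifs as searched in these windows, which says nothing about the factors themselves. Both windows do hold GCGTG, the form of the hypoxia core that was not counted.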

How the data were processed

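RNA of the 4 HepG2 samples was hybridised to Affymetrix arrays, 1 array each. The authors deposited log2 intensity values, for which the submitters' processing notes name RMA and Affymetrix Expression Console. The base of the logarithm was inferred from the values and from what RMA normally writes. The sources used here give neither a software version nor the set of arrays normalized jointly. Arrays have no counting depth, and their number limits the precision.

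Of 33297 rows, 19460 carried 1 gene symbol, 1754 several and 12083 none in GEO's platform annotation. Only rows with 1 symbol were named. The 33.3% of rows with the lowest mean (below 3.41) were left out, and each gene was represented by its brightest row. The 14147 genes were fitted with limma 3.58.1 (R 4.3.3; lmFit and eBayes, two-sided) with the experiment as a block and Benjamini-Hochberg adjustment. This follows the series text, which places the duplicates in independent studies, and the numbers in the titles. The deviations from group means of arrays that share a number had a correlation of 0.335. The p-values of the blocked fit rest on the disagreement between the 2 experiments, moderated across genes. The fits were checked on simulated data.

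Medians are over all members, tested or not. Every member past the threshold is named, as are fixed pairs and groups of enzymes; other members were named to account for the whole set. Members, lists and tests were chosen with earlier results of these data known. RefSeq matched 65 of the 66 members. Alternatives changed the block, filter, scaling, moderation, rows, classes and arrays. Figures were drawn with matplotlib 3.10.9.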

Additional observations from a re-analysis of the deposited data

How the results depend on the processing

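With no replicate block, 5 members passed in place of 20, all of them higher: 4 erasers, 1 writer and 0 PRDM genes (JMJD1C, KDM5B, KDM5A, JMJD6 and KMT2E). Over all genes tested 3.2% were higher and 0.714% lower in that fit. At an unadjusted p under 0.05 it had 24 members higher and 0 lower, a count not made over all genes. With single arrays left out, the changes of these 5 stayed above 0. They lay between 1.94 and 2.44 for JMJD1C, 0.92 and 1.31 for KDM5B, and 0.84 and 1.26 for KDM5A. For JMJD6 the range was 0.93 to 1.10 and for KMT2E 0.94 to 1.33. Such a fit has a single array in 1 group, so its counts cannot show whether a call rests on the array left out. Leaving out each array in turn, in the unpaired fit, left between 0 and 7 members higher, between 0 and 3 erasers, between 0 and 3 writers and between 0 and 1 PRDM genes. The count of 7 came from leaving out experiment 1's anti-miR-191 array. No member kept a call when any other single array was left out, and neither did any other gene tested. Over these settings the median change lay between 0.38 and 0.66 for erasers, between 0.19 and 0.45 for writers and between -0.012 and 0.039 for PRDM genes. The eraser minus writer difference lay between 0.14 and 0.25.

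Of the 20 risen members, quantile normalization kept 16 (without KDM5C, SETD4, KMT2B and EHMT1), and it left 5 writers and a writer median of 0.21. Median centring, cyclic loess and the trend and robust moderation each kept 19, without EHMT1. Leaving out rows below the median kept 17, without KDM6A, KDM3A and NSD3, whose rows were then too dim. Asking for 1.5-fold in both experiments kept 16, without KDM5D, KDM5C, SETD4 and EHMT1. Of all genes tested, 6.34% were higher under quantile normalization, 8.96% under median centring, 8.81% under cyclic loess and 9.85% under the moderation. That share was 11.5% with rows below the median left out and 6.45% with the 1.5-fold rule, against 10.1% in the main fit. With the strict classes 5 writers rose. The median of PRDM genes was 0.031 under cyclic loess and -0.033 in experiment 1 alone, and that of writers was 0.38 in experiment 2 alone. The sign turned for KMT2A with the mean of its rows (-0.018). With single arrays left out, changes lay between -0.16 and 0.53 for KMT2A, between -0.25 and 0.40 for KDM1B, between -0.033 and 0.27 for KDM1A and between -0.080 and 0.039 for SUV39H2. The cause was not tested.

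The interquartile range of levels came to 3.38 and 3.43 after anti-miR-191, against 3.18 and 3.24 in controls, and olfactory receptor genes had a median change of -0.10. Whether this spread had a part in the members' changes was tested only through the scalings above.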
